A study of Mus musculus with 12 samples.

Results

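The transcripts described here are those of 46 lysosomal genes in mouse brain, which encode acid hydrolases and their helpers, membrane proteins of the organelle, the transcription factor Tfeb and subunits of the proton pump. They were chosen by name from a list of lysosomal genes and not by a measured value, but with earlier results of these data known. All 46 were found among the 31208 genes of the table and were measured in every mouse. By role they comprised 9 cysteine proteases (8 cathepsins and legumain), 3 other proteases, 11 glycosidases and sulfatases, 8 genes of lipid handling, 9 membrane proteins, Tfeb and 5 pump genes.

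RNA came from the brains of 12 C57BL/6 mice aged 8 weeks, 4 in each of 3 groups. The sham group had no ischemia. The vehicle group had 6 h of cerebral ischemia, made by blocking the left middle cerebral artery with a filament, after an injection of saline into the cerebral ventricle on the day before. The lactate group had the same ischemia after an injection of lactate by the same route, which the labels call lactate and the study's methods D-lactate, the mirror form of the L-lactate that cells make. The study asked what raised brain lactate does to gene expression in the ischemic brain. No gene was deleted and no transgene was carried by any group. The sources used here do not say whether sham mice received an injection, so the ischemia and the injection cannot be told apart in the comparisons with sham.

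Lysosomes are acidic organelles that break down proteins, lipids, sugars and nucleic acids taken up from outside or delivered by autophagy. A proton pump, the V-ATPase, acidifies the lumen, cathepsins and other hydrolases do the cutting, and heavily glycosylated membrane proteins line the inner face of the membrane. TFEB, a basic helix-loop-helix factor, drives transcription of many of these genes when it moves to the nucleus, and it binds a short palindrome called the CLEAR element. Phagocytes such as microglia, the resident macrophages of the brain, hold many lysosomes, while neurons use them along the axon and cell body.

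Total counts were 6815920 to 10677224 per mouse, and the 46 genes took 0.962% to 1.17% of the counts of a mouse. Counts of single members ran from 5 to 71253, so Naglu and Ctsc rested on few reads and Psap on many. Neuron markers were abundant in all mice, with a summed level of 4645 to 6633 CPM, the count of a gene scaled to the same total in each mouse, and no mouse lacked them. Vehicle mouse 1 stood apart on the second principal component of all genes, at 57.2 against -14.6 to -7.94 in the other vehicle mice, and its neuron marker sum was the highest of its group. Vehicle mouse 2 held far more choroid plexus transcripts than the others, with a summed marker level of 1845 CPM against 12.6 to 19.0 CPM in the other vehicle mice. Calls of members against the vehicle group that change without these mice are given with both values. Marker calls are given from the main fits only.

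The CLEAR element was looked for in the RefSeq promoters of the members, since it is the sequence through which TFEB is known to act. Promoters from 250 bases before to 50 after the start on GRCm38.p6 were matched for 41 of the 46 genes, and Npc1, Asah1, Ctsb, Atp6v1b2 and Ctsh had no entry. The core TCACGTGA, a palindrome and so the same on both strands, was in the promoters of 6 of 41 members (14.6%) and of 304 of 27025 genes in all (1.12%). The shorter E-box CACGTG, which lies inside it, was in 14 of 41 members (34.1%) and in 8.09% of all genes. Among genes of the filtered table the shares were 2.09% for TCACGTGA and 11.5% for CACGTG. These counts describe letters in a window and not binding. The 6 sites follow, each 30 bases long and 5′ to 3′ on the strand of its gene, with TCACGTGA in capitals, because they are the stretches where the members share sequence.
Ctsd: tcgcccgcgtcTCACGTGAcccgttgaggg
Mcoln1: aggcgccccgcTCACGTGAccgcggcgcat
Cln3: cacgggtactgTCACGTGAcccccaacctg
Atp6v1a: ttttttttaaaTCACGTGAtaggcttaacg
Atp6v0d1: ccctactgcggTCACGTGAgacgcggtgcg
Ctsa: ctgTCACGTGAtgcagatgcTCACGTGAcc

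The Ctsd site lies at chr7:142387908-142387937 on the minus strand, 99 bases before the RefSeq start. The Mcoln1 site lies at chr8:3500462-3500491 on the plus strand, 46 bases before the start. The Cln3 site lies at chr7:126583340-126583369 on the minus strand, 122 bases before the start. In GENCODE, which holds further transcripts of these genes, each of these 3 sites falls in an untranslated exon of its gene. The Atp6v1a site, at chr16:44139373-44139402 on the minus strand and 132 bases before the start, is intronic in GENCODE. The Atp6v0d1 site, at chr8:105566050-105566079 on the minus strand, starts 4 bases before the RefSeq start and lies outside any GENCODE gene. Ctsa, at chr2:164833757-164833786 on the plus strand, holds the core at 2 places, 13 bases before and 4 bases after the start, in an untranslated exon. Of these 6 genes, Ctsd rose in lactate-treated ischemic brains against sham, and the other 5 did not pass the test in any comparison. With lactate against sham 15.2% of the 46 members and 8.76% of all genes were called upward, so this count is not read as a result about the motif.

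In lactate-treated ischemic brains 7 of the 46 lysosomal genes were upregulated against sham and none was downregulated. They were the proteases Ctsc, Ctss, Lgmn and Ctsd and the membrane proteins Cd63, Cd68 and Laptm5, with log2 fold changes of 0.54 to 1.49. The share of members upregulated was 15.2%, against 8.76% of all 17262 genes tested, at a Benjamini-Hochberg adjusted p under 0.05 in edgeR. The share of all genes downregulated was 3.55%. With single mice left out, 5.77% to 8.37% of all genes were called upward and 1.71% to 3.16% downward. The same 7 genes were called in each of the 17 alternative settings tried. The study's methods adjust P values by the Benjamini-Hochberg approach, then set their limits at 1.5-fold and P under 0.05. They do not say whether this P was the adjusted one. P is taken as unadjusted here and below. On that reading 5 members passed the limits upward and none downward, where 11.9% of all genes passed upward and 5.65% downward. All 46 members have an Ensembl identifier, while the table also holds loci without one. In the fit limited to genes with such an identifier, 8 members were upregulated (17.4%, against 5.04% of 13337 genes), the 7 and Hexa, and 6 passed the study's limits upward (against 6.6% of these genes). The median log2 fold change of the 46 members was 0.08, against -0.03 over all genes, and 28 of 46 were above 0 (60.9%, against 46.9% of all genes). The other 39 genes had log2 fold changes of -0.55 to 0.46.

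In vehicle-treated ischemic brains only Cd63 was upregulated against sham among the 46 genes, and none was downregulated. That is 2.2% of members, where 1.29% of all 17019 genes tested were upregulated and 0.182% downregulated (edgeR, Benjamini-Hochberg adjusted p under 0.05). At an unadjusted p under 0.05, 2 members were higher (Cd63 and Cd68) and 1 was lower (Glb1), where 13.8% of all genes had such a p in either direction. Further, 2 members passed the study's limits upward and none downward, where 6.5% and 3.01% of all genes did. The median log2 fold change of the members was 0.07, and 28 of 46 were above 0, against 50.4% of all genes. Without vehicle mouse 1, 3 members were called upward (Cd63, Cd68 and Ctsd), and 1.8% of all genes were. Without vehicle mouse 2, where 0.755% of all genes were called upward, no member was, and Cd63 had an adjusted p of 0.0783 in edgeR.

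Between lactate-treated and vehicle-treated ischemic brains none of the 46 genes passed the adjusted test, and across all 17419 genes tested 0% were called upward and 0.00574% downward in edgeR. DESeq2 called none of the members either, where it called 52 of the 17419 genes upward and 9 downward. Limma also called none, where it called 1 gene upward and 1 downward. At an unadjusted p under 0.05, 5 members were higher with lactate (Cd63, Ctss, Ctsc, Lgmn and Laptm5) and 1 was lower (Man2b1), where 8.84% of all genes had such a p. The same 6 genes were the members whose mice did not overlap between these groups, 10.9% of members all higher and 2.17% all lower, against 2.99% and 1.83% of all genes. The lowest adjusted p of a member was 0.46 in edgeR. Only Ctsc also passed the study's limits, which 3.76% of all genes passed upward and 2.47% downward, or 1.84% and 2.19% of genes with an Ensembl identifier. For 25 of the 46 genes the 95% interval of the fold change lay within 1.5-fold either way, and for the other 21 it reached past that size, so a 1.5-fold difference remained possible there at this depth and number of mice. The 2 comparisons with sham share the sham mice, and an upward call in the lactate group without one in the vehicle group is no test between the treatments, which is the comparison given here.

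**Figure D1:**
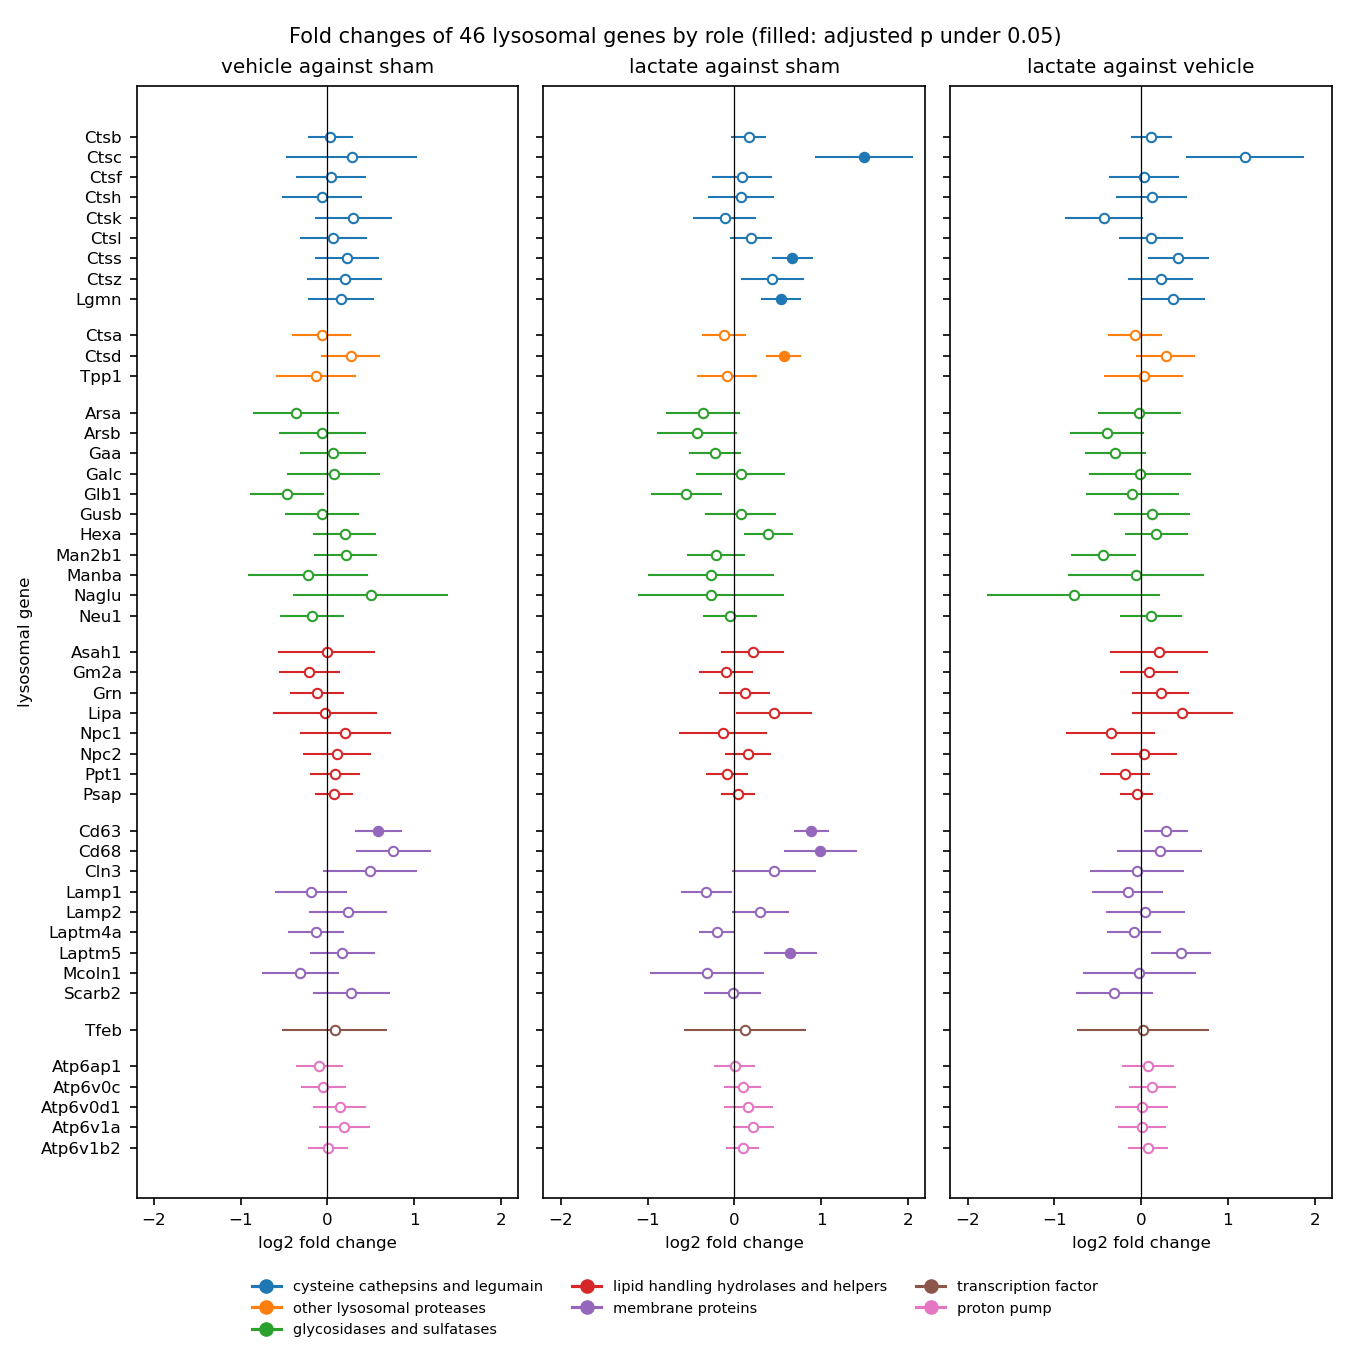
Log2 fold change of each of the 46 lysosomal genes in the 3 comparisons, ordered by role, with 95% intervals from edgeR as lines and filled points at an adjusted p under 0.05. There are 7 filled points with lactate and 1 with vehicle (Cd63), both against sham, and none for lactate against vehicle.

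The cysteine cathepsins and legumain are endopeptidases and exopeptidases of the lysosomal lumen. In the lactate group 3 of these 9 genes rose against sham, where 8.76% of all genes did, and the other 6 had log2 fold changes of -0.11 to 0.44 with adjusted p of 0.101 or more in edgeR. Their summed level was 899 to 992 CPM in sham mice, 827 to 1090.1 CPM in vehicle mice and 1077 to 1187 CPM in lactate mice. The lactate mice lay above all sham mice in this sum and overlapped the vehicle mice. Against sham with vehicle the 9 genes had log2 fold changes of -0.06 to 0.30, none of which passed.

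Ctsc (ENSMUSG00000030560, chr7:88278085-88310888), cathepsin C or dipeptidyl peptidase I, activates granule serine proteases of immune cells by trimming their ends. Its level was 2.51, 1.78, 1.90 and 1.48 CPM in the sham mice, 1.22, 2.33, 2.86 and 2.79 CPM in the vehicle mice and 4.33, 6.47, 5.80 and 4.52 CPM in the lactate mice. All 4 lactate mice lay above every mouse of the other groups, which overlapped each other. Against sham the log2 fold change with lactate was 1.49 ± 0.26 (SE, n = 4 mice per group), 2.81-fold, with an edgeR adjusted p of 0.00291. Against vehicle it was 1.20 ± 0.31 (SE), 2.29-fold, with an unadjusted p of 0.00208 and an adjusted p of 0.46 in edgeR. The gene was counted 12 to 54 times per mouse, so counting error weighs on each of these values.

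Ctss (ENSMUSG00000038642, chr3:95526786-95556403), cathepsin S, cuts the invariant chain during antigen presentation and is best known from microglia and macrophages in brain. It measured 116, 93.1, 120.2 and 118 CPM in sham, 89.7, 146, 148 and 127 CPM in vehicle and 152, 179.5, 184 and 179 CPM in lactate mice. The lactate mice were above all others, and vehicle mice lay on both sides of the sham mice. With lactate the log2 fold change was 0.67 ± 0.11 (SE) against sham, with an edgeR adjusted p of 0.0016, and 0.43 ± 0.16 (SE) against vehicle, with an edgeR adjusted p of 0.517.

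Lgmn (ENSMUSG00000021190, chr12:102394084-102439813) encodes legumain, an asparaginyl endopeptidase that processes other lysosomal proteases. Its values were 62.8, 53.1, 65.2 and 59.3 CPM in sham, 44.6, 71.7, 74.9 and 69.8 CPM in vehicle and 83.2, 84.7, 90.5 and 82.7 CPM in lactate mice. The lactate mice were again the highest, and vehicle mouse 1 was the lowest of all 12. The log2 fold change with lactate was 0.54 ± 0.10 (SE) against sham, with an edgeR adjusted p of 0.00495, and 0.37 ± 0.16 (SE) against vehicle, with an edgeR adjusted p of 0.55. Without vehicle mouse 1 the difference between lactate and vehicle was 0.23.

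Of the 3 other proteases, Tpp1 and Ctsa, the second of which also shields other hydrolases, were not called in any comparison, with log2 fold changes between -0.13 and 0.03. Ctsd (ENSMUSG00000007891, chr7:142375911-142388038) encodes cathepsin D, the main aspartic protease of the lysosome, and carries the CLEAR core printed above. It measured 227, 217, 233 and 213 CPM in sham, 180.1, 295, 284 and 288 CPM in vehicle and 349.96, 290.3, 327 and 323 CPM in lactate mice. Lactate mice lay above sham mice without overlap, whereas the vehicle group overlapped both. Its log2 fold change was 0.57 ± 0.09 (SE) with lactate and 0.27 ± 0.15 (SE) with vehicle, each against sham, with edgeR adjusted p of 0.0016 and 0.47. Between the ischemic groups it was 0.28 ± 0.15 (SE, edgeR adjusted p = 0.611), and 0.15 without vehicle mouse 1. Vehicle mouse 1 was the low value of its group. Without this mouse the difference of vehicle from sham was 0.41 on the log2 scale with an edgeR adjusted p of 0.0434. A gene model named Gm49369 overlaps Ctsd on its strand in GENCODE, so reads of the pair may be split between them.

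**Figure D2:**
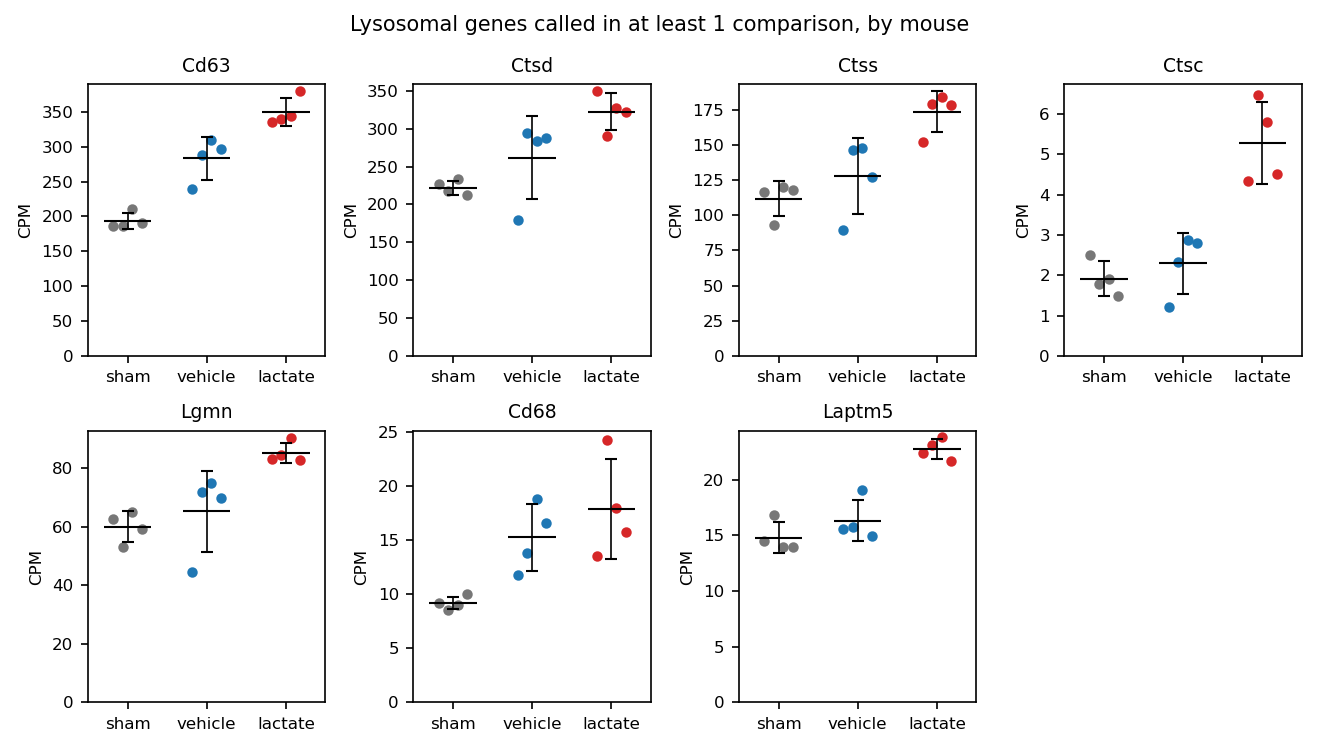
CPM of the 7 lysosomal genes with an adjusted p under 0.05 in at least 1 comparison, 1 point per mouse, with the group mean and SD as bars. For Cd63, Ctss, Ctsc, Lgmn and Laptm5 the 4 lactate mice lie above all vehicle and sham mice, and vehicle mouse 1 is the low point for Ctsd (180.1 CPM) and Lgmn (44.6 CPM).

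Cd63, Cd68 and Laptm5 were the membrane proteins that rose with lactate against sham. Cd63 (ENSMUSG00000025351, chr10:128900989-128912822) is a tetraspanin of late endosomes, lysosomes and exosomes found in many cell types. It was at 186, 185.9, 210.4 and 191 CPM in sham, 239, 289, 309 and 296 CPM in vehicle and 336, 339.98, 344 and 379 CPM in lactate mice. The 3 groups did not overlap, and sham was the lowest and lactate the highest. The means were 193 ± 11.7 CPM in sham, 283 ± 30.9 CPM in vehicle and 349.8 ± 19.9 CPM in lactate mice (SD, n = 4 each). Against sham its log2 fold change was 0.89 ± 0.09 (SE) with lactate, with an edgeR adjusted p of 3.86e-05, and 0.59 ± 0.12 (SE) with vehicle, with an edgeR adjusted p of 0.0295. That between lactate and vehicle was 0.29 ± 0.11 (SE), with an interval of 0.05 to 0.52, an unadjusted p of 0.0229 and an adjusted p of 0.524 in edgeR. The call for vehicle against sham was lost in 8 of 17 alternatives, in which its adjusted p reached 0.121, while the log2 fold change stayed between 0.55 and 0.66 in all 17.

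Cd68 (ENSMUSG00000018774, chr11:69664213-69666153), macrosialin, is a heavily glycosylated lysosomal protein of macrophages and microglia. It measured 9.23, 8.58, 8.96 and 9.99 CPM in sham, 11.8, 13.9, 18.8 and 16.6 CPM in vehicle and 13.5, 24.3, 17.9 and 15.8 CPM in lactate mice. Every ischemic mouse lay above every sham mouse, and the ischemic groups overlapped. The log2 fold change against sham was 0.99 ± 0.19 (SE) with lactate (edgeR adjusted p = 0.00542) and 0.76 ± 0.20 (SE) with vehicle (edgeR adjusted p = 0.0893). Without vehicle mouse 1 the value with vehicle was 0.87, with an edgeR adjusted p of 0.0261. Between lactate and vehicle it was 0.21 ± 0.22 (SE), with an interval of -0.27 to 0.69 and an edgeR adjusted p of 0.807. This difference was 0.03 without lactate mouse 2, the highest for Cd68, and 0.11 without vehicle mouse 1.

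Laptm5 (ENSMUSG00000028581, chr4:130913125-130936141) is a lysosomal transmembrane protein of blood-derived and immune cells. Its levels were 14.5, 16.8, 13.99 and 13.9 CPM in sham, 15.5, 15.8, 19.05 and 14.97 CPM in vehicle and 22.4, 23.1, 23.9 and 21.7 CPM in lactate mice. The lactate mice were above the rest, with sham and vehicle mice intermixed. The log2 fold change with lactate was 0.65 ± 0.14 (SE) against sham, with an edgeR adjusted p of 0.00917, and 0.46 ± 0.15 (SE) against vehicle, with an edgeR adjusted p of 0.496. Laptm4a, its relative that is widely expressed, was not called and had log2 fold changes of -0.20 against sham with lactate and -0.13 with vehicle.

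Lamp1 (ENSMUSG00000031447, chr8:13159161-13175338), the most used marker of the lysosomal membrane, did not rise with the proteins above. It measured 149, 174, 133 and 121 CPM in sham, 173.5, 111, 109 and 102 CPM in vehicle and 109, 99.6, 114 and 129.98 CPM in lactate mice. The groups overlapped, and vehicle mouse 1 lay far above the other vehicle mice. Its log2 fold change with lactate against sham was -0.32 ± 0.13 (SE), with an unadjusted p of 0.0267 and an adjusted p of 0.126 in edgeR, and it was -0.20 without sham mouse 2. Lamp2, its partner, had a log2 fold change of 0.30 in the same comparison, with an edgeR adjusted p of 0.213.

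Mcoln1 (ENSMUSG00000004567, chr8:3500457-3515232), the calcium channel through which lysosomes signal to TFEB, varied widely among the sham and the lactate mice. It was at 32.7, 41.1, 23.0 and 23.8 CPM in sham, 25.7, 23.1, 22.3 and 24.1 CPM in vehicle and 32.6, 12.5, 16.0 and 34.1 CPM in lactate mice. The vehicle mice lay close together, and the lactate mice held both low and high values around them. The log2 fold change with lactate against sham was -0.32 ± 0.30 (SE), with an edgeR adjusted p of 0.541, and it ran from -0.54 without lactate mouse 4 to -0.10 without lactate mouse 2. The other membrane proteins, Cln3 and Scarb2, a receptor that carries glucocerebrosidase to the lysosome, were not called in any comparison.

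Tfeb itself (ENSMUSG00000023990, chr17:47737030-47792419) showed no difference beyond the spread of the mice. It was at 7.65, 3.90, 4.75 and 5.06 CPM in sham, 3.75, 6.86, 6.60 and 4.84 CPM in vehicle and 7.03, 4.91, 2.51 and 8.12 CPM in lactate mice. All 3 groups overlapped, and the lactate mice spanned the full range. The log2 fold changes were 0.12 ± 0.32 (SE) for lactate against sham and 0.02 ± 0.34 (SE) for lactate against vehicle, with intervals of -0.57 to 0.82 and -0.73 to 0.77. Their edgeR adjusted p were 0.848 and 0.993. The direction of these small differences flipped under several settings. TFEB acts by moving to the nucleus, which transcript levels do not measure.

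The 5 genes of the proton pump, which acidifies the lumen, gave no call. Against sham with lactate their log2 fold changes were 0.01 to 0.22 (lowest edgeR adjusted p 0.183), and between lactate and vehicle they were 0.00 to 0.13 (lowest edgeR adjusted p 0.783). Atp6v1a (ENSMUSG00000052459, chr16:44085402-44139705), the catalytic subunit that hydrolyses ATP, was at 179, 145, 181 and 187 CPM in sham, 173, 211, 177 and 209.95 CPM in vehicle and 209.6, 198, 204 and 177 CPM in lactate mice. The groups overlapped. Its log2 fold change between lactate and vehicle was 0.01 ± 0.12 (SE) with an interval of -0.25 to 0.27, and its sign flipped under some settings.

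The 11 glycosidases and sulfatases, which strip sugars and sulfate from glycoproteins, glycolipids and glycosaminoglycans, gave no call in edgeR. With lactate against sham 3 of the 11 had a log2 fold change above 0, where 46.9% of all genes did. The median of the 11 was -0.22, against -0.03 over all genes. Glb1 (ENSMUSG00000045594, chr9:114401076-114474898), the lysosomal beta-galactosidase, was at 21.0, 19.3, 22.3 and 18.7 CPM in sham, 12.4, 19.8, 12.3 and 12.9 CPM in vehicle and 16.8, 10.1, 10.9 and 16.5 CPM in lactate mice. All lactate mice lay below all sham mice, and 1 vehicle mouse lay within the sham range. Against sham Glb1 had a log2 fold change of -0.55 ± 0.18 (SE) with lactate and -0.47 ± 0.19 (SE) with vehicle, with edgeR adjusted p of 0.069 and 0.311. With lactate it was called downregulated by DESeq2, by limma and without lactate mouse 1. Tmppe lies within Glb1 on its strand, and reads of the pair may be split. Glb1 and Hexa were chosen here after their values were seen.

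Hexa (ENSMUSG00000025232, chr9:59539540-59565109), the alpha subunit of beta-hexosaminidase that cuts GM2 ganglioside, had the opposite direction. It was at 26.4, 23.6, 21.5 and 24.7 CPM in sham, 23.9, 22.3, 30.5 and 31.1 CPM in vehicle and 31.5, 29.9, 28.1 and 33.7 CPM in lactate mice. The lactate mice were all above the sham mice, and the vehicle mice fell into both ranges. Its log2 fold change with lactate against sham was 0.39 ± 0.13 (SE), with an edgeR adjusted p of 0.0615. It was called upregulated with DESeq2 and in the fit limited to Ensembl genes.

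Man2b1 (ENSMUSG00000005142, chr8:85083270-85098282), the lysosomal alpha-mannosidase, was at 15.8, 13.04, 13.3 and 14.3 CPM in sham, 15.3, 17.2, 15.3 and 16.0 CPM in vehicle and 12.6, 12.5, 10.4 and 12.3 CPM in lactate mice. The lactate mice were the lowest, below both other groups. Its log2 fold change was -0.44 ± 0.17 (SE) for lactate against vehicle (unadjusted p = 0.0214 and adjusted p = 0.522 in edgeR) and -0.21 ± 0.15 (SE) for lactate against sham (edgeR adjusted p = 0.403). Naglu (ENSMUSG00000001751, chr11:101070012-101077672), an enzyme of heparan sulfate breakdown, had the lowest log2 fold change of the 46 genes between lactate and vehicle in edgeR, -0.78 ± 0.45 (SE), with an adjusted p of 0.643. It was at 0.791, 1.34, 1.36 and 1.11 CPM in sham, 2.53, 1.81, 0.871 and 1.03 CPM in vehicle and 0.676, 0.599, 1.45 and 1.04 CPM in lactate mice. These groups overlapped, and the gene had 5 to 27 counts per mouse. Without vehicle mouse 1 the difference between lactate and vehicle was -0.41.

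**Figure D3:**
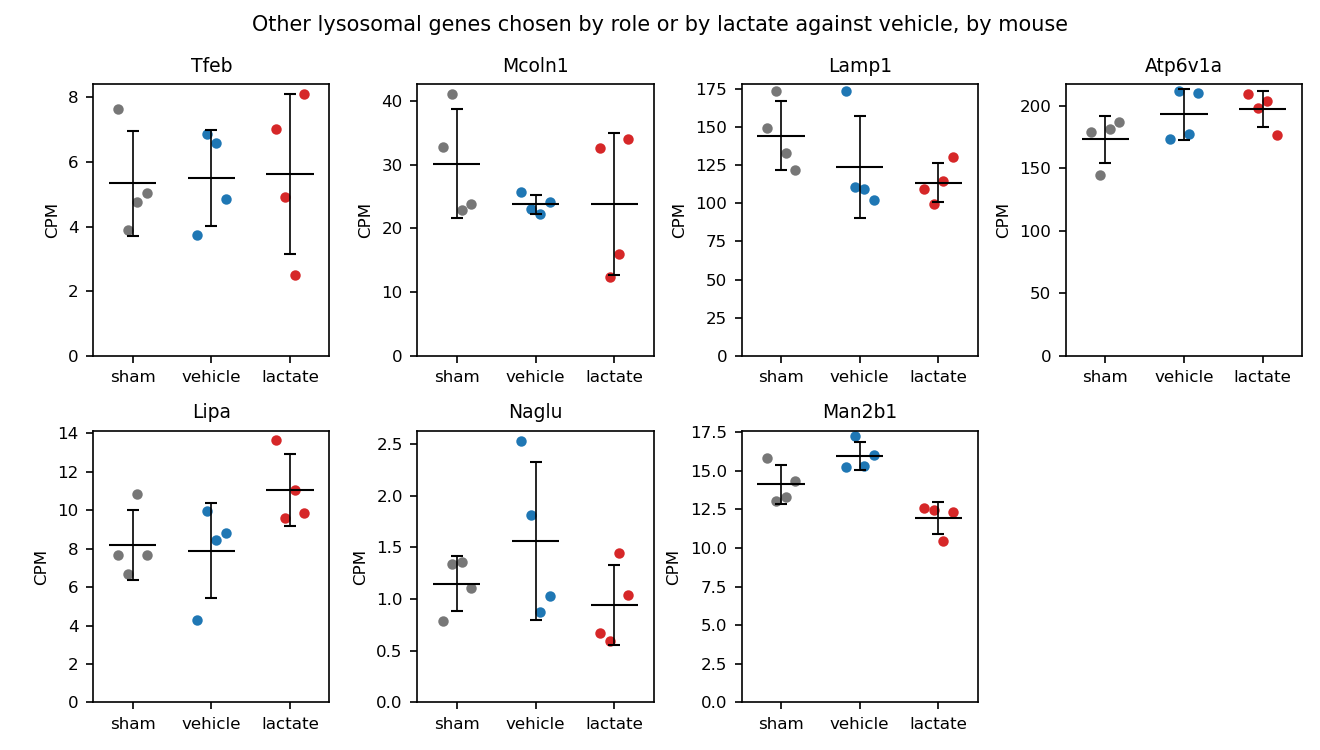
CPM of Tfeb, Mcoln1, Lamp1, Atp6v1a, Lipa, Naglu and Man2b1, 1 point per mouse, with the group mean and SD as bars. None passed the adjusted test, and only for Man2b1 do the 4 lactate mice lie apart from the vehicle mice, at 10.4 to 12.6 CPM against 15.3 to 17.2 CPM.

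The 8 genes of lipid handling, among them Psap, the precursor of the saposins that present sphingolipids to hydrolases, and Npc1 and Npc2, which export cholesterol, gave no call in any comparison. With lactate against sham their log2 fold changes were -0.13 to 0.46. Lipa (ENSMUSG00000024781, chr19:34492318-34527474), the acid lipase of cholesteryl esters and triglycerides, was at 7.65, 6.69, 10.9 and 7.65 CPM in sham, 4.31, 9.97, 8.47 and 8.80 CPM in vehicle and 13.7, 9.58, 11.1 and 9.86 CPM in lactate mice. The groups overlapped. The log2 fold change was 0.46 ± 0.20 (SE) for lactate against sham and 0.48 ± 0.26 (SE) for lactate against vehicle, with edgeR adjusted p of 0.154 and 0.624, and the second was 0.27 without vehicle mouse 1.

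In counts of mice that did not overlap, 8 of the 46 genes were higher in every lactate mouse than in every sham mouse, the 7 upregulated genes and Hexa. That is 17.4% of members, against 10.4% of all genes. Glb1 and Man2b1 were lower in every lactate mouse, 4.35% of members against 8.74% of all genes. For vehicle against sham Cd63 and Cd68 were higher in every mouse and no member was lower, 4.35% and 0% of members against 4.14% and 4.89% of all genes. The fit of vehicle against sham had a larger spread between mice than that of lactate against sham, with a biological coefficient of variation of 23.4% against 18.6%.

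Cathepsin S, cathepsin C, legumain, Cd68 and Laptm5 are known from microglia and macrophages, and marker levels of these cells are given beside them. The 18 microglia markers summed to 530.5 to 616 CPM in sham, 493 to 634 CPM in vehicle and 742 to 842 CPM in lactate mice, so that the lactate mice lay above the rest and the other groups overlapped. With lactate against sham 5 of the 18 were upregulated (C1qa, C1qb, C1qc, Fcrls and Tyrobp) and 3 downregulated (P2ry12, P2ry13 and Gpr34). C1qb, a chain of the first complement component, had a log2 fold change of 1.25 ± 0.12 (SE, edgeR adjusted p = 2.44e-05), while P2ry12, a purine receptor of resting microglia, had -1.10 ± 0.19 (SE, edgeR adjusted p = 0.00265). With vehicle against sham C1qb was upregulated and P2ry12, P2ry13 and Cx3cr1 were downregulated. None was called between lactate and vehicle.

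The 17 markers of monocytes and border macrophages summed to 61.5 to 67.8 CPM in sham, 81.8 to 117 CPM in vehicle and 136 to 182 CPM in lactate mice, without overlap between groups. Of 11 tested, Spp1, Lyz2 and Ms4a6c were upregulated with lactate against sham, and of 9 tested none was called with vehicle. Spp1, osteopontin, had a log2 fold change of 2.18 ± 0.13 (SE) with lactate (edgeR adjusted p = 3.53e-07). The 14 neutrophil markers summed to 3.79 to 7.91 CPM in sham, 40.2 to 99.96 CPM in vehicle and 62.6 to 88.7 CPM in lactate mice, and Camp, Elane, Ltf, Ly6g and Ngp had 3 counts or fewer in every mouse. Lcn2, S100a8, S100a9 and Retnlg were upregulated with lactate against sham, and the first 3 with vehicle, where 8.76% and 1.29% of all genes were. Markers so low in sham could pass the filter on CPM through the ischemic mice alone. The number tested therefore differs by comparison, in this list and the one before, and no share of it is read as a result. The 12 neuron markers summed to 5479 to 5679 CPM in sham, 4698 to 6633 CPM in vehicle and 4645 to 5312 CPM in lactate mice, and none of them was called.

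Markers of other cells moved as well with lactate against sham. Of 10 astrocyte markers Gfap, a filament protein of reactive astrocytes, was upregulated, with a log2 fold change of 2.47 ± 0.18 (SE, edgeR adjusted p = 1.99e-06), and Sox9 was downregulated. Gfap was also upregulated with vehicle, by 1.64 ± 0.31 (SE, edgeR adjusted p = 0.0201), and was not called between lactate and vehicle (0.80 ± 0.28, SE, edgeR adjusted p = 0.496). The astrocyte sum was 6413 to 10308 CPM in sham, 9899.6 to 11661 CPM in vehicle and 9829.7 to 11675 CPM in lactate mice. Of 10 oligodendrocyte markers, Opalin, Mog and Cnp were downregulated with lactate against sham. Of 12 endothelial and mural markers Ly6c1 rose and Slco1a4 fell, and 4 of 5 blood markers fell. Of the choroid plexus and ependyma markers, whose sum was at most 10.7 CPM in sham mice, 3 were tested and Ttr rose. Its log2 fold change was 3.25 ± 0.36 (SE, edgeR adjusted p = 9.51e-05). The blood sum was 560.4 to 633 CPM in sham, 333 to 500.4 CPM in vehicle and 375 to 499 CPM in lactate mice. Whether these cell populations take part in the change of the lysosomal genes was not tested. In RNA of whole brain tissue, more cells of a type and more RNA per cell cannot be told apart.

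**Figure D4:**
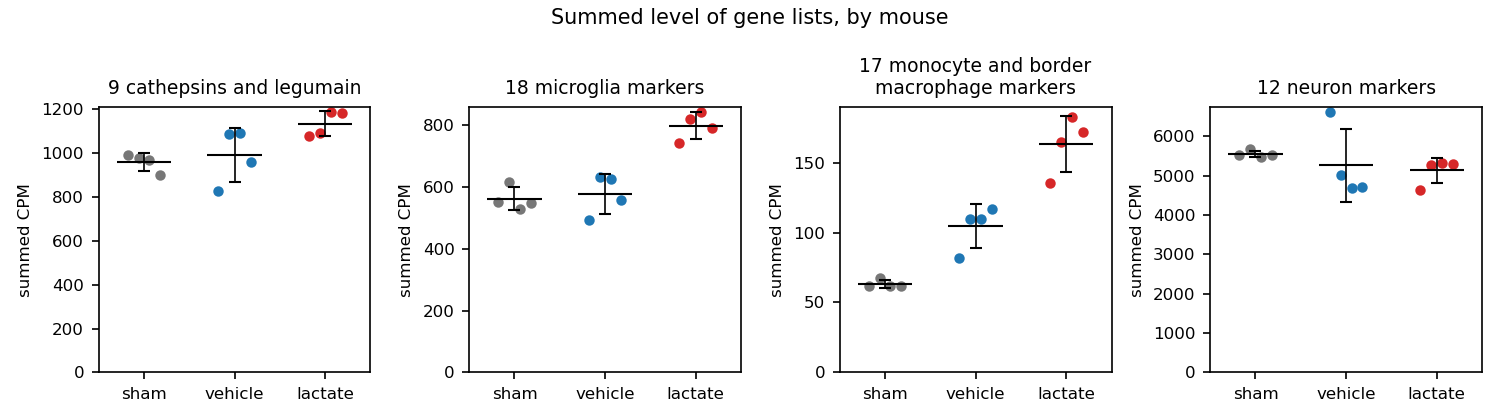
Summed CPM per mouse of the 9 cysteine cathepsins and legumain and of the markers of microglia, of monocytes and border macrophages, and of neurons, with the group mean and SD as bars. The microglia sum is 742 to 842 CPM in lactate mice and at most 634 CPM in the other mice.

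Other genes of the lysosomal system are given beside the 12.3% of all genes called in either direction for lactate against sham. Of 27 further lysosomal hydrolases tested for lactate against sham, Smpd1 rose, with a log2 fold change of 0.55 ± 0.14 (SE, edgeR adjusted p = 0.0238), and Arsg and Pld3 fell, with values of -0.85 ± 0.21 and -0.31 ± 0.08 (SE, edgeR adjusted p = 0.0176 and 0.0257). Smpd1 encodes the acid sphingomyelinase, Arsg a sulfatase of heparan sulfate and Pld3 a nuclease of the lumen. Of 25 further membrane proteins and transporters, Lamp5, a neuronal relative of Lamp1, fell, with a log2 fold change of -0.53 ± 0.14 (SE, edgeR adjusted p = 0.0268). Among 17 further pump subunits, Atp6v0a1, a membrane subunit of neurons, rose by 0.45 ± 0.12 on the log2 scale (SE, edgeR adjusted p = 0.0228). These calls were each lost in at least 2 of 17 alternatives.

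Of 21 genes of TFEB relatives and mTORC1 signalling at the lysosome, 11 of mannose 6-phosphate sorting and 3 cathepsin inhibitors, none was called for lactate against sham. Of 25 autophagy genes, Ulk2, a kinase that starts autophagy, fell by 0.75 on the log2 scale (SE 0.20, edgeR adjusted p = 0.0271), a call lost in 6 of 17 alternatives, with adjusted p up to 0.0781. No gene of any of these lists was called for vehicle against sham or for lactate against vehicle.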

How the data were processed

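Brain RNA of 12 mice (4 sham, 4 ischemia with vehicle, 4 ischemia with lactate, by the sample labels) was sequenced by the authors as PCR-amplified cDNA on a nanopore platform. Short, low-quality and ribosomal reads were removed, and full-length reads were mapped with minimap2 and collapsed with pinfish and gffcompare. Per the labels' processing notes the build was GRCm38 and DESeq 1.10.1 was used, while the study's methods name another version of DESeq. How reads were assigned to genes, and whether strand was used, is not given in the sources used here, and 12 of the 46 members overlap another coding gene. The deposited count values are whole reads per gene, not normalized. The deposited CPM values are made by the authors from these counts by scaling each mouse to 1 common total. The table also holds P values and log2 fold changes of the authors' own comparisons, which were not used. All per-sample columns were mapped to a mouse, and 4 lines without a gene were left out.

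Each pair of groups was fitted alone by edgeR's quasi-likelihood test (version 4.0.16, run in R 4.3.3, scaled by TMM), which kept genes that reached a CPM of 1 in 4 or more of the 8 mice, and a gene was called at a Benjamini-Hochberg adjusted p under 0.05 over all genes tested. Intervals are at 95%, from the standard error and the degrees of freedom of the same test. The labels do not say that the samples came from separate litters or days, and p-values measure the spread between these mice. Alternatives were other size factors, DESeq2 1.42.0, limma 3.58.1 with voom and quality weights, other filters, 1 fit of all 12 mice, genes with an Ensembl identifier only, the replicate number as a block, and leaving out each mouse. The labels use the same mouse numbers in each group for separate animals, and same-numbered mice did not deviate together, so the block is an alternative only.

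Members given by mouse are those called in any comparison, 5 fixed by role (Tfeb, Mcoln1, Lamp1, Ctsd and Atp6v1a) and the 2 highest and 2 lowest in lactate against vehicle. Glb1 and Hexa were added after their values were seen. Of the other lists, at most 3 genes by smallest p were named, and further genes where 5 or fewer passed. The members and lists were chosen with earlier results of these data known. Positions are those of GENCODE release M21 on GRCm38, and promoters those of RefSeq.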

Additional observations from a re-analysis of the deposited data

Results flagged for a closer look

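Of 75 groups of 4 mice looked at, 12 held a mouse far from the other 3. In each of these the gap to the nearest mouse was 0.83 or more of the range of the group. The same mice recur among the groups, so no rate by chance is given. The groups were 48 of the members given by mouse and 27 of summed cell markers. Vehicle mouse 1 was low for Ctsd, at 180.1 CPM against 284 to 295 CPM in the other vehicle mice, and for Lgmn, at 44.6 CPM against 69.8 to 74.9 CPM. It was high for Lamp1, at 174 CPM against 102 to 111 CPM, and for the neuron marker sum, at 6633 CPM against 4698 to 5020 CPM. Vehicle mouse 2 was high for Glb1, at 19.8 CPM against 12.3 to 12.9 CPM. Sham mouse 2 was low for Ctss, at 93.1 CPM against 116 to 120.2 CPM, and high for the monocyte and border macrophage sum, at 67.77 CPM against 61.5 to 61.9 CPM. Lactate mouse 3 was low for Man2b1, at 10.4 CPM against 12.3 to 12.6 CPM. Lactate mouse 1 was low for the neuron marker sum, at 4645 CPM against 5282 to 5312 CPM, and high for the oligodendrocyte sum, at 10061 CPM against 9022 to 9173 CPM. The choroid plexus and ependyma sum was 1845 CPM in vehicle mouse 2 against 12.6 to 19.0 CPM in the other vehicle mice, and 12.57 CPM in lactate mouse 2 against 22.2 to 23.0 CPM in the other lactate mice.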

How the results depend on the processing

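For lactate against sham the same 7 members were upregulated in all 17 alternatives, and 8 were with DESeq2 (with Hexa), with limma (with Ctsz) and with Ensembl genes only (with Hexa). Over all genes 1567 of 17262 were upregulated with DESeq2, 1487 with limma and 672 of 13337 with Ensembl genes only. Glb1 was downregulated with DESeq2, with limma and without lactate mouse 1. The number of members downregulated was 1 in each of these 3 and ranged from 0 to 1 when single mice were left out. Over all genes 745 were downregulated with DESeq2, 687 with limma and 368 of 16820 without lactate mouse 1. For vehicle against sham the number upregulated was 2 with DESeq2, 2 with limma (Cd63 and Cd68 in both) and 0 with the replicate block, and it ranged from 0 to 3 when single mice were left out. Over all 17019 genes 399 were upregulated with DESeq2, 341 with limma and 179 with the block. With single mice left out, 0.633% to 1.8% of all genes were. Cd63 lost its call without any 1 of the 4 sham mice and without vehicle mouse 2, 3 or 4, with adjusted p up to 0.121. In these fits its log2 fold change was 0.55 to 0.63. They called 106 to 184 genes upward in all, against 219 in the main fit. The cause was not tested. For lactate against vehicle no member was called in any alternative, and DESeq2 called the most genes in all, 52 of 17419 upward and 9 downward. Over all 46 members the sign reversed in at least 1 alternative for 15 with vehicle against sham, 8 with lactate against sham and 18 with lactate against vehicle, none of them called in that comparison under any setting. Values of the members given by mouse follow. Lipa for vehicle against sham was 0.045 with limma and -0.16 to 0.19 with single mice left out. For Tfeb the value was -0.034 to 0.29 for vehicle against sham with single mice left out. For lactate against sham it was -0.058 with limma and -0.10 to 0.37 with mice left out. For lactate against vehicle it was -0.29 with limma, -0.041 with the replicate block and -0.20 to 0.27 with mice left out. For lactate against vehicle, Mcoln1 was 0.017 with Ensembl genes only and -0.24 to 0.20 with mice left out, Lamp1 was 0.017 with limma and -0.24 to 0.067, and Atp6v1a was -0.008 with limma, -0.013 without a filter and -0.033 to 0.063. Glb1 was -0.222 to 0.094 there with mice left out.

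Same-numbered mice of different groups had correlations of -0.17 to 0.18 in their deviations, above 0.1 in 4 of 12 pairs, and 5 mice correlated best with their own number, so the numbers do not pair the mice. With the replicate block Cd63 for vehicle against sham had a log2 fold change of 0.58 and an adjusted p of 0.0537, and the 7 calls for lactate against sham stayed. With 3 counts as the floor of detection, single mice could show no member below 0.281 to 0.440 CPM, which covers counting error only.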
